A study of Mus musculus with 2 samples.

Results

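The cells described here are C1q MHC class II high cells of mouse bone marrow cultures, that is, cells that held messenger RNA of the complement gene C1qb together with a high number of molecules of the MHC class II gene H2-Ab1. A cell was a member if it had 2 or more C1qb UMIs, 20 or more H2-Ab1 UMIs, 0 Ccr7 UMIs and at most 1 Arg1 UMI, where a UMI (unique molecular identifier) stands for 1 captured RNA molecule. It also had to carry a single hashtag of culture day 3, 4, 5 or 7, at least 500 detected genes and less than 15% mitochondrial UMIs. In all, 883 cells were members, 716 of the control library and 167 of the heme library, out of 21748 cells of those days that passed the same cell filters (9961 control and 11787 heme) and 31339 barcodes in the series. Levels are given in CPM, the UMIs of a gene summed over members per 1000000 UMIs of those cells.

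Lineage-depleted bone marrow progenitors of C57BL/6 mice aged 8 to 10 weeks were grown with 20 ng/ml GM-CSF, the cytokine that drives granulocytes, macrophages and dendritic cells from marrow. The GM-CSF was shared by all cultures. On day 3 heme-albumin at 300 µM (heme group) or albumin alone (control group) was added, and the question was which cell fates the heme changed. Cultures of each day were tagged with hashtag antibodies, pooled into 1 library per group and read by droplet 3′ RNA counting, so that each group and day is 1 culture in 1 library. Day 3 of both libraries came before any heme was added, and the difference between libraries on that day is the background against which later days can be read. The authors' exposure times do not all match the culture days of the hashtags, with day 5 in doubt, so only culture days are used. The number of mice behind a culture was not described. With 1 library per group no test across samples was possible and no p-values are given, and all intervals are 95% intervals for counting error only.

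C1q is the recognition molecule of the classical complement pathway and is built from chains encoded by C1qa, C1qb and C1qc. It binds immune complexes and dying cells and is made mainly by tissue macrophages and by some dendritic cells. MHC class II molecules present peptides to CD4+ T cells. Their α and β chains pair in the endoplasmic reticulum with the invariant chain Cd74, H2-DM exchanges the chain's remnant for peptide, and the coactivator Ciita switches the whole gene group on. Ccl17 is a chemokine that attracts T cells through CCR4, and Asgr2 and Mgl2 are C-type lectins that bind galactose-type sugars, Mgl2 being a known marker of a subset of conventional type 2 dendritic cells and of alternatively activated macrophages. Heme taken up by a cell is broken down by Hmox1, and the iron released is stored by ferritin (Fth1) or exported by Slc40a1.

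The control library held 198754588 gene UMIs over 13961 barcodes and the heme library 333481636 over 17378. The members of the heme library were the deeper ones: their median UMI count per cell was 32542.5 to 48633 by day, against 15547 to 26050.5 for control members. On day 7 the medians were 37198 and 15547. A rule on raw UMIs admits a deep cell at a lower level, and 21 of 29 heme members of day 7 had more than 5000 detected genes against 39 of 461 control members. Barcodes shared by both libraries numbered 112 and 9 of them belonged to members. Barcodes that the authors called as several hashtags were left out, and among those that passed the other cell filters 8.60% met the rule on the 4 genes in the control library (107 of 1244, interval 7.10 to 10.3%) and 2.82% in the heme library (55 of 1951, interval 2.13 to 3.65%), while no separate doublet caller was run.

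The rule was also applied to cells that should not make these RNAs. Of kept cells with 100 or more UMIs of S100a8, an alarmin of neutrophils, 0 of 1079, 2 of 1471, 8 of 1295 and 4 of 98 met it in the control cultures of days 3, 4, 5 and 7. In the heme cultures 0 of 1750, 1 of 2186, 1 of 1453 and 0 of 474 did, where 0 of 474 allows a share of up to 0.775%. Day 0 held no member among 1646 control and 1827 heme cells. The highest of these shares, 4.08% on day 7 of the control library, rests on 4 cells.

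The 5 genes by which these cells were labelled, C1qb, H2-Ab1, Ccl17, Asgr2 and Mgl2, did not mark them in every culture. In the control library they did so from day 4 on: on day 7, 88.5% of members (408 of 461) had UMIs of Ccl17, Asgr2 and Mgl2 together, and 37.5% did on day 3, 77.0% on day 4 and 77.1% on day 5. In the heme library 51.9% of day 3 members had all 3, then 20.8%, 19.4% and 10.3% (3 of 29 cells) on days 4, 5 and 7. Asgr2 in particular had a median of 0 UMIs in heme members of days 4, 5 and 7, so those cells were C1qb and H2-Ab1 cells that mostly lacked Asgr2. Of day 7 control members 91.8% had an Asgr2 UMI, at a median depth of 15547 UMIs. Of the 94 S100a8-high cells of that culture outside the rule 5.32% did, at a median of 4915. Asgr2 was not particular to members, at 1325 CPM in them and 909 in H2-Ab1-high cells of that culture with 0 C1qb UMIs.

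The members were chosen by their UMIs of C1qb, H2-Ab1, Ccr7 and Arg1, and the values of these genes are given as a description. Summed over members, C1qb stood at 136, 169, 243 and 619 CPM on days 3, 4, 5 and 7 of the control library and at 136, 107, 138 and 157 in the heme library. The median member held 3, 3, 5 and 8 C1qb UMIs in the control cultures and 3, 3, 4 and 4 in the heme cultures, at the edge of the rule in most. H2-Ab1 ranged from 3097 to 3927 CPM in control members and from 2450.5 to 3267 in heme members. On day 7 of the control culture the cells just inside and just outside the C1qb threshold were alike in other genes: the 48 cells with 2 C1qb UMIs had 12038 Ccl17, 1169.8 Asgr2 and 1528 Mgl2 CPM, and the 80 cells with 1 C1qb UMI and the same H2-Ab1 minimum had 11009, 998 and 1472. At the H2-Ab1 edge the 36 cells with 20 to 24 UMIs had 7919.7 Ccl17 CPM and the 31 cells with 15 to 19 had 4778. The C1qb threshold thus cut through a range of cells with similar levels of these genes. Ccl17 was graded along H2-Ab1 on both sides of its threshold. It stood at 2675 CPM in all 175 cells under 20 H2-Ab1 UMIs and at 10608 in all members.

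Day 7 control members were also set against the 207 H2-Ab1-high cells of the same culture with 0 C1qb UMIs. A gene was tested if it had 20 or more UMIs in both groups together and 50 or more CPM in the higher, and it was called if the ratio was 2 or more or 0.5 or less. Of 2554 tested genes 9 were called higher (0.352%) and 2 lower (0.0783%), and since the rule used this contrast nothing is read from the count. Apart from C1qb the genes called higher included C1qa (52.4-fold) and C1qc (27.0-fold), the kallikreins Klk1b11 (2.46-fold) and Klk1b9 (2.11-fold), the membrane proteins Tmem176a and Tmem176b (2.29-fold and 2.04-fold) and the neutrophil granule gene Camp, 63.6% of whose UMIs in members lay in 1 cell. The genes called lower were the monocyte chemokine Ccl7 (0.172 times) and Mucl1 (0.391 times). Klk1b11 and Klk1b9 are close paralogs, and how the authors' counting split their reads is not known.

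The share of members grew over the days in the control library and stayed low in the heme library. Of kept control cells 1.15% were members on day 3 (24 of 2089, interval 0.737 to 1.70%), 2.70% on day 4 (61 of 2263), 6.54% on day 5 (170 of 2601) and 15.3% on day 7 (461 of 3008, interval 14.1 to 16.7%). Of kept heme cells 1.55% were members on day 3 (52 of 3351, interval 1.16 to 2.03%), 0.800% on day 4 (24 of 2999), 2.33% on day 5 (62 of 2665) and 1.05% on day 7 (29 of 2772, interval 0.702 to 1.499%). Before heme was added the cultures differed by 0.403 percentage points (heme minus control, interval -0.276 to 1.03). Afterwards heme was below control by 1.90 points on day 4 (interval -2.70 to -1.16), 4.21 on day 5 (interval -5.36 to -3.09) and 14.3 on day 7 (interval -15.7 to -12.9).

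**Figure D1:**
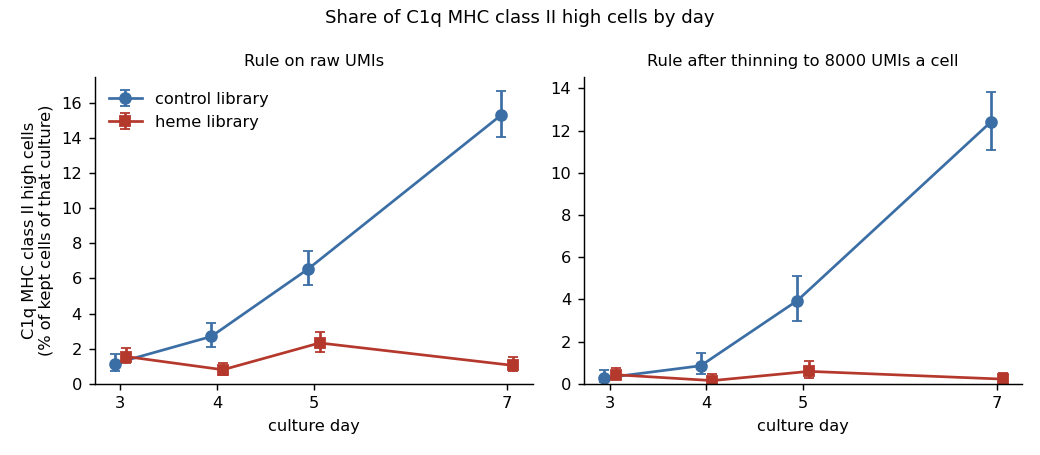
Share of kept cells (percent, vertical axis) that were C1q MHC class II high cells by culture day (horizontal axis), control and heme libraries, with 95% binomial intervals as bars. The left panel applies the rule to raw UMIs and the right panel to cells thinned to 8000 UMIs; control reaches 15.3% and 12.4% on day 7 while heme stays at 1.05% and 0.222%.

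Since the heme library was the deeper one, the rule was repeated after each cell was thinned to 8000 UMIs. The control shares became 0.272, 0.854, 3.95 and 12.4% on days 3, 4, 5 and 7 (5 of 1837, 13 of 1522, 56 of 1419 and 280 of 2256 cells). The heme shares became 0.429, 0.152, 0.589 and 0.222% (13 of 3029, 3 of 1976, 10 of 1697 and 5 of 2249 cells). Shallower cells were left out, 252, 741, 1182 and 752 in the control cultures and 322, 1023, 968 and 523 in the heme cultures. With and without thinning, heme was below control on each day after day 3. Shares describe the pooled cells and not cell numbers per dish, so a smaller share of these cells and a larger number of others cannot be told apart.

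The libraries differed at both steps of the rule. H2-Ab1 reached 20 UMIs in 9.67, 13.3, 22.5 and 36.9% of kept control cells and in 10.1, 8.40, 17.7 and 10.8% of kept heme cells. Among those H2-Ab1-high cells C1qb reached 2 UMIs in 13.4, 22.0, 32.5 and 51.4% of control cells (day 7 interval 48.4 to 54.4%) and in 16.0, 12.7, 15.9 and 11.1% of heme cells (day 7 interval 7.75 to 15.2%). Over all kept cells of the control library both shares were thus higher on each later day. The other kept cells changed too. Kept control cells with 100 or more S100a8 UMIs were 1079 of 2089, 1471 of 2263, 1295 of 2601 and 98 of 3008. In the heme library they were 1750 of 3351, 2186 of 2999, 1453 of 2665 and 474 of 2772. Fewer such cells on day 7 raise the shares of all other kept cells, members included. Of control members only 8 on day 5 and 4 on day 7 were such cells. The rise from 6.54% to 15.3% between those days was therefore smaller outside the S100a8-high cells, and by how much was not tested. Of 584 and 1109 H2-Ab1-high control cells of days 5 and 7 only 16 and 8 were S100a8-high. Outside the S100a8-high cells the H2-Ab1 share was thus lower on day 7 than on day 5. The limits on Ccr7 and Arg1 took out 63 and 46 cells of the day 7 control culture and 3 and 1 of the heme culture.

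The other C1q chains followed C1qb over the control days. C1qa, C1qb and C1qc lie side by side within 18.7 kb of chromosome 4 (GRCm38, GENCODE M21), all on the minus strand: C1qb at chr4:136880129-136886187, C1qc at chr4:136889804-136893065 and C1qa at chr4:136895917-136898803. C1qa stood at 4.65, 25.8, 37.3 and 185 CPM in control members of days 3, 4, 5 and 7, the first from 3 UMIs, and at 19.8, 6.64, 14.0 and 17.7 in heme members. C1qc stood at 32.5, 57.7, 92.3 and 242 in control members and at 26.9, 31.3, 42.3 and 45.0 in heme members. Both were thus highest in the day 7 control culture, and neither day 3 culture was above any later control culture.

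Within the control library C1qa was 7.17 times as high on day 7 as on day 4 (interval 5.37 to 9.80) and C1qc 4.20 times (interval 3.45 to 5.17). Between libraries on day 7, heme members had 0.0954 times the control level of C1qa (interval 0.0596 to 0.145) and 0.186 times that of C1qc (interval 0.140 to 0.242). Among members of 20000 to 60000 UMIs, 138 control and 18 heme, the ratios were 0.229 and 0.337. Within narrower cell limits, at most 5000 detected genes and under 30% ribosomal UMIs together, which left 414 control and 8 heme members, they were 0.237 and 0.509, so that C1qc was no longer called. C1qc had a UMI in 83.3% of day 7 control members and in 62.1% of day 7 heme members, against 3.19% and 0.211% of S100a8-high cells outside the rule at median depths of 4915 and 8939.5. A UMI of neither C1qa nor C1qc was found in 14.5% of day 7 control members and in 34.5% of day 7 heme members, so C1qb was the only C1q chain counted in those cells.

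The class II chain genes H2-Ab1, H2-Aa and H2-Eb1 lie within 59.0 kb of chromosome 17, near the H2-DM genes. A promoter entry matched 5 of the 8 listed class II genes. The window of 100 bases before the start of each transcript was read from RefSeq (GRCm38.p6) for the letters GATTGG on either strand (reverse complement CCAATC), the inverted CCAAT box known as the Y box of class II promoters. The motif was chosen after the windows had been looked at, and GATTGG stood on the gene's strand in 4.58% of 32851 promoter windows of that length and on either strand in 8.62%. The 5 genes had 6 windows, of which both windows of H2-DMa held the letters on neither strand. The other 4 are shown because high class II RNA is what these cells were chosen for, 5′ to 3′ on the gene's strand, with the motif and, once in H2-Eb1, its reverse complement in capitals. GATTGG began 49 bases before the start of H2-Aa (chr17:34287824-34287923, minus), 60 before that of H2-Eb1 (chr17:34305767-34305866, plus), 62 before that of H2-DMb1 (chr17:34153091-34153190, plus) and 91 before that of H2-DMb2 (chr17:34145149-34145248, plus).
H2-Aa: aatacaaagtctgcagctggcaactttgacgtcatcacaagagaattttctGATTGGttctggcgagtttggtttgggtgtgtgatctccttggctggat
H2-Eb1: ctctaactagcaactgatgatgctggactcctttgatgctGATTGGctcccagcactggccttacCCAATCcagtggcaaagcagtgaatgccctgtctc
H2-DMb1: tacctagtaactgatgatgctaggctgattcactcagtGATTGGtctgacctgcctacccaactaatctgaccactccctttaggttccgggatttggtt
H2-DMb2: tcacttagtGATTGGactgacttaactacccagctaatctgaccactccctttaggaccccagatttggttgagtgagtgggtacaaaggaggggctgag

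The class II chain genes differed by less than 2-fold in members across cultures, all of which had been required to hold 20 or more UMIs of H2-Ab1. H2-Aa, the α chain partner of H2-Ab1, stood at 3241, 3512, 3565 and 4282 CPM in control members of days 3, 4, 5 and 7 and at 3019.5, 2960.5, 3292 and 3669 in heme members. H2-Eb1, another class II β chain gene, stood at 2119.6, 2751, 2879.8 and 3172 in control members and at 2081, 2162, 2400.3 and 2289.7 in heme members. Cd74, the invariant chain, stood at 10804, 13574, 14445 and 17509 in control members and at 10586, 10281, 11974 and 14064 in heme members. All 3 were highest in the day 7 control culture, and on day 7 each was lower in heme members.

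On day 7 heme members had 0.857 times the control level of H2-Aa, 0.722 times that of H2-Eb1 and 0.803 times that of Cd74. Among members of 20000 to 60000 UMIs the H2-Aa ratio was 1.07, so that its direction turned. Ciita, the coactivator of the group, stood between 138 and 171 in control members and between 139 and 216 in heme members. The member of the group that stood apart was H2-DMb2, 1 of the 2 genes for the H2-DM β chain, at 218, 179, 222 and 374 in control members and at 194, 124, 77.7 and 94.0 in heme members. It was higher on day 7 than in any other control culture and below control in every heme culture after day 3. The heme level was 0.887 times the control level on day 3, 0.350 times on day 5 (interval 0.305 to 0.400) and 0.251 times on day 7 (interval 0.207 to 0.302).

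The paralog H2-DMb1, the other H2-DM β chain gene, did not follow it, at 429, 398, 379 and 359 in control members and at 286, 428, 451 and 423 in heme members. Its ratio on day 7 was 1.18 (interval 1.07 to 1.30). Their transcripts are near-identical and the authors' counting could have split reads between them, so the H2-DMb2 value is uncertain. Among members of 20000 to 60000 UMIs it was 0.547 on day 5, short of a call, and 0.392 on day 7, and within the narrower cell limits it was 0.574 and 0.475.

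The chemokine Ccl17 (chr8:94810453-94812036) was abundant in control members and lower in heme members on each day after heme was added. It stood at 5214, 9504, 9966 and 10608 CPM in control members of days 3, 4, 5 and 7 and at 4989.6, 5408, 3766 and 1718 in heme members. The median member held 86, 263, 246 and 149 Ccl17 UMIs in the control cultures and 151.5, 170, 151 and 5 in the heme cultures. The 2 day 3 cultures were alike, the control cultures were higher from day 4 on, and the day 7 heme culture was the lowest of all. Relative to control, heme members had 0.957 times the level on day 3 (interval 0.920 to 0.995), 0.569 times on day 4 (interval 0.552 to 0.586), 0.378 times on day 5 (interval 0.371 to 0.385) and 0.162 times on day 7 (interval 0.155 to 0.169). Of day 7 members, 97.8% of control cells (451 of 461) and 44.8% of heme cells (13 of 29, interval 26.4 to 64.3%) held 10 or more Ccl17 UMIs.

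Asgr2, a subunit of the asialoglycoprotein receptor best known from liver cells, had one of the lowest ratios of heme to control members among the tested genes of day 7. The gene lies at chr11:70092644-70106187 between Asgr1 and Mgl2 (chr11:70130329-70137550), and with Clec10a these related lectin genes span 116.8 kb of chromosome 11. Asgr2 stood at 129, 329.6, 676 and 1325 CPM in control members of days 3, 4, 5 and 7 and at 150.2, 53.1, 42.9 and 6.43 in heme members. It thus was higher on each later day in the control library and lower on each later day in the heme library, from like levels on day 3. The heme level was 1.17 times the control level on day 3 (interval 0.913 to 1.51), 0.161 times on day 4 (interval 0.120 to 0.212), 0.0634 times on day 5 (interval 0.0535 to 0.0747) and 0.00485 times on day 7 (interval 0.00209 to 0.00956). The day 7 value rests on 8 UMIs in the 29 heme members, against 11127 in the 461 control members. In S100a8-high cells outside the rule Asgr2 stood at 54.1 CPM in the day 7 control culture and at 1.18 in the day 7 heme culture. Among members of 20000 to 60000 UMIs the ratio was 0.105 on day 5 and 0.00810 on day 7, and within the narrower cell limits it was 0.0216 and 0.0170, all below 0.5.

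Mgl2, the lectin of alternatively activated macrophages and type 2 dendritic cells, stood at 479, 879, 1239 and 1452 CPM in control members and at 606, 359, 329 and 359 in heme members. The heme level was 1.27 times the control level on day 3 (interval 1.12 to 1.44), 0.409 times on day 4, 0.266 times on day 5 (interval 0.249 to 0.283) and 0.247 times on day 7 (interval 0.224 to 0.272). Its neighbour Clec10a, which encodes the closely related lectin MGL1, was low throughout, at 88.2 to 115 in control members and 43.6 to 89.98 in heme members. Asgr1, the partner subunit of Asgr2, had 1 UMI in the day 7 control members and 0 in all other cultures, so the Asgr2 counts did not come with Asgr1 counts. The resistin-like gene Retnla, another gene of alternative activation, had 8 UMIs in day 7 control members and 0 in all other cultures. Within the narrower cell limits, with 8 heme cells on day 7, the ratio to control was 0.573 for Mgl2, which was then not called, and 0.0178 for Ccl17.

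**Figure D2:**
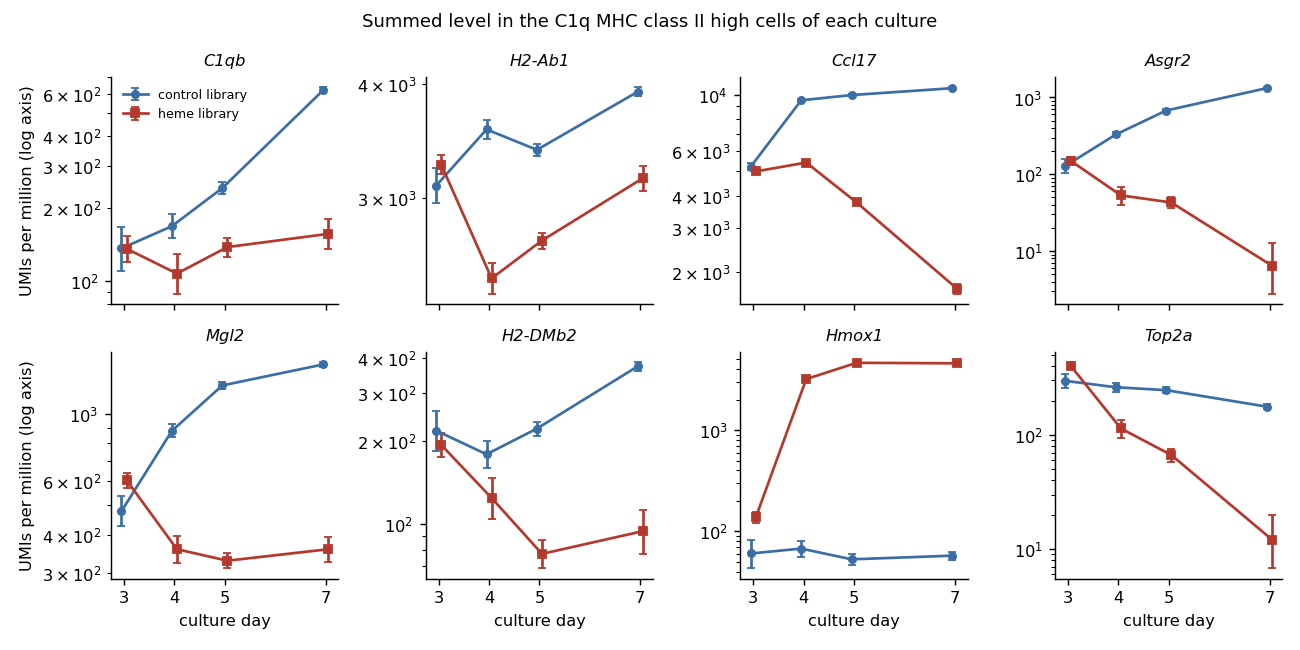
Level in members (CPM summed over member cells, log axes) by culture day for C1qb, H2-Ab1, Ccl17, Asgr2, Mgl2, H2-DMb2, Hmox1 and Top2a, control and heme libraries, with 95% counting intervals. The libraries start near each other on day 3 for all but Hmox1 (60.4 control, 138 heme); by day 7 Asgr2 is at 1325 in control and 6.43 in heme, and Hmox1 at 57.5 and 4579.

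The same gap was seen cell by cell on day 7. Hmox1, the heme-degrading enzyme, had 10 or more UMIs in 29 of 29 heme members and in 5 of 461 control members. Marco, a scavenger receptor of macrophages, had 2 or more UMIs in 12 of the 29 heme members (41.4%) and in 0 of 461 control members, which allows a share of up to 0.797%. Relative to each cell's depth, the 29 heme members held 243 to 11022 Hmox1 CPM (median 4798) and the control members 0 to 922 (median 0), and 28 of the 29 lay above the highest control cell. Of S100a8-high cells of the day 7 heme culture 95.8% also had a Hmox1 UMI.

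**Figure D3:**
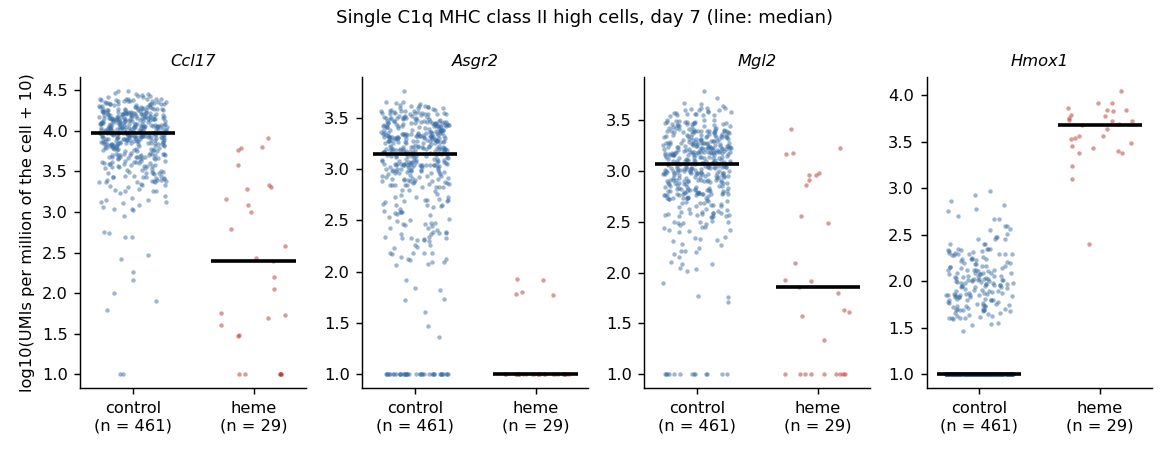
Level in single members of day 7, as log10(CPM + 10), for Ccl17, Asgr2, Mgl2 and Hmox1 in 461 control and 29 heme cells, with a line at the median. Heme cells split in Ccl17, with 13 of 29 at 10 or more UMIs, lie at the bottom of the Asgr2 axis in most cells, and lie above every control cell in Hmox1 in 28 of 29 cells, the last at 243 CPM.

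In genes of dendritic cells and macrophages, the members summed by culture held both kinds. Itgax, which encodes the integrin CD11c, stood at 248 to 347 CPM in control members and at 251 to 480 in heme members. Irf4, a transcription factor of type 2 dendritic cells, stood at 112 to 148 in control members and at 76.3 to 154 in heme members, while Zbtb46, which marks conventional dendritic cells, stood at 19.6 to 25.8 and 10.4 to 30.4. Flt3, the receptor that conventional dendritic cells depend on in the body, had 0 UMIs in control members of days 3, 4 and 5 and 1 on day 7, and in heme members 15, 0, 5 and 0 UMIs on days 3, 4, 5 and 7. Csf1r, the macrophage growth factor receptor, stood at 141 to 208 in control members and 216 to 253 in heme members. The summed members of each culture thus held RNA of both Csf1r and Itgax, with Zbtb46 low and Flt3 at 15 UMIs or fewer per culture. Whether single cells held both was not tested.

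Adgre1, which encodes the macrophage antigen F4/80, stood at 63.5, 53.8, 71.7 and 99.1 in control members and at 83.7, 117, 148 and 243 in heme members. The heme level was above control on all 4 days, and on day 7 the ratio was 2.45 (interval 2.14 to 2.80). Marco had 0 UMIs in all 4 control cultures and stood at 7.10, 10.4, 10.9 and 353 in heme members. On days 3, 4 and 5 S100a8-high heme cells outside the rule had 6.74, 8.80 and 11.7, near the levels of the members, and on day 7 they had 63.0, below the members.

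Marker lists of other cell types were summed over members of each culture. The 7 heme macrophage genes (Marco, Spic and others) summed to 18.1 to 30.01 CPM in control members and to 25.9, 144, 249 and 991 in heme members of days 3, 4, 5 and 7, with Timd4 at 0 in all 8 cultures. The 12 neutrophil genes summed to 1257 to 2689.6 in control members and 1923 to 5418 in heme members, with 59.7% of the highest value in 1 cell. The 7 progenitor genes summed to 76.7 to 201 over all 8 cultures, the 6 basophil and mast cell genes to 9.64 to 21.7 and the 6 lymphocyte genes to at most 4.02, with Cd3e, Ms4a1 and Trbc2 at 0 in every culture. The 8 erythroid genes summed to 35.6 to 53.3 in 6 cultures, to 226 in control members of day 5 (82.4% in 1 cell) and to 970 in heme members of day 7 (95.3% in 1 cell). The part of free RNA and of undetected doublets in these levels was not tested.

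Over time within the control library, day 7 members were compared with day 4 members. Of 2767 tested genes 66 were 2-fold or more higher on day 7 (2.39%) and 43 lower (1.55%), so the members of both days were alike in most genes. Among the 10 highest ratios outside the rule, Pltp, a phospholipid transfer protein, was 35.1-fold higher (interval 15.0 to 108), Tmem176b 15.0-fold, the ribonuclease Ear2 12.3-fold, Tmem176a 9.99-fold, Klk1b11 7.33-fold, C1qa 7.17-fold, Ccdc80 7.08-fold and the interferon-responsive gene Ifi27l2a 5.79-fold. Mucl1 had 0 UMIs on day 4 and was at least 33.8-fold higher against a floor of 3 counts, with 194 of its 468 day 7 UMIs in 1 cell, without which the bound was 19.8-fold. Asgr2 was 4.02-fold higher (interval 3.70 to 4.37), Ccr2, the receptor of monocyte chemokines, 2.73-fold, H2-DMb2 2.09-fold (interval 1.86 to 2.35) and Mgl2 1.65-fold (interval 1.57 to 1.74).

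Among the 10 lowest ratios were cytokines, chemokines and Id genes. The inhibitors of DNA binding Id3 and Id1 were at 0.00990 and 0.177 times the day 4 level. Rasgef1b was at 0.0895 times, the activin gene Inhba at 0.210, the matrix gene Vcan at 0.235 and Tnfaip2 at 0.280. The cytokines Il1b (0.256 times) and Tnf (0.281 times) and the chemokines Cxcl3 (0.176 times) and Ccl4 (0.256 times) completed them. On day 4, 69 of 132 Inhba UMIs lay in 1 cell, as did 80 of 158 Cxcl3 UMIs, so these ratios lean on single cells. Among lists, 1 of 7 tested class II genes was called higher, 4 of 13 oxidant response genes were called lower (Gclm, Txnrd1, Slc7a11 and Gstm1) and none of 16 cell cycle genes was called, with a median log2 ratio of -0.56 beside -0.07 over all counted genes. The cell cycle genes summed to 2696 CPM on day 4 and 1873 on day 7, but to 2534 and 454 in the median cell. The median cell thus differed more between these days than the sum.

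Between libraries, day 3 gives the background. Of 3187 tested genes 71 were 2-fold or more higher in heme members (2.23%) and 10 lower (0.314%), although no heme had yet been added. The highest was the chemokine Cxcl2 at 11.9-fold (interval 6.17 to 26.2), followed by the neutrophil granule gene Ngp at 4.41-fold (interval 2.83 to 7.24), and the lowest was Hccs at 0.393 times. Hmox1 was 2.28-fold higher (interval 1.63 to 3.28), at 138 against 60.4 CPM. Within the narrower cell limits neither passed 2-fold, with Hccs at 0.643 times and Hmox1 at 1.74-fold. S100a8-high cells of the day 3 heme and control cultures held 128 and 16.2 Hmox1 CPM, and the part of free RNA in these values was not tested. No class II gene of 7 tested and no cell cycle gene of 16 tested was called.

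On day 5, of 3020 tested genes 315 were higher in heme members (10.4%) and 206 lower (6.82%). On day 7, of 2987 tested genes 391 were higher (13.1%) and 232 lower (7.77%). The day 7 comparison set 29 heme cells with 1244725 UMIs against 461 control cells with 8396983. Counting only genes whose whole interval lay beyond 2-fold, 262 were higher and 130 lower on day 7, and 2 and 0 on day 3. The split into higher and lower depended on the scaling. With TMM factors the median log2 ratio of all tested genes moved from 0.08 to -0.15 on day 7, and the share of called genes that were higher went from 62.8% to 46.4% on day 7 and from 60.5% to 51.1% on day 5.

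Genes of heme handling and iron were higher in heme members. Hmox1 stood at 60.4, 67.6, 52.9 and 57.5 CPM in control members of days 3, 4, 5 and 7 and at 138, 3201, 4633 and 4579 in heme members. Fth1, the ferritin heavy chain, stood at 14227, 14349, 14219 and 13273 in control members and at 14441, 53179.8, 65978 and 59891 in heme members. The control cultures were flat and the heme cultures were high from day 4 on. On day 7 the ratio was 79.6 for Hmox1 (interval 72.5 to 87.5) and 4.51 for Fth1 (interval 4.47 to 4.55). The iron exporter Slc40a1 was 268-fold higher (interval 156 to 507, from 13 control UMIs), the metal transporter Slc11a1 15.9-fold and the heme transporter Slc48a1 4.99-fold. Of 8 tested genes of the heme and iron list 7 were called higher and none lower on day 7, with a median log2 ratio of 1.76 beside 0.07 over all counted genes. On day 5 it was 7 of 9, with the transferrin receptor Tfrc called lower at 0.142 times.

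Of 19 tested oxidant response genes 13 were called higher on day 7 and none lower, with a median log2 ratio of 2.07. Gclm, a subunit of the enzyme that starts glutathione synthesis, stood at 163, 178, 108 and 59.3 in control members and at 242, 846, 1117 and 1039 in heme members. Its ratio on day 7 was 17.5, that of the quinone reductase Nqo1 20.4 (interval 14.2 to 29.96) and that of the peroxiredoxin Prdx1 5.67. The malic enzyme Me1 was 85.5-fold higher (interval 37.5 to 240, from 6 control UMIs). On day 5 it was 13 of 18 genes, with a median of 1.59, and on day 3 it was 1 of 14. Hmox1 was also high in S100a8-high heme cells outside the rule, where it stood at 1655 CPM on day 7.

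Cell cycle genes were lower in heme members. Top2a, a topoisomerase of dividing cells, stood at 297, 261, 247 and 177 in control members and at 405, 114, 66.6 and 12.1 in heme members. Mki67, the antigen Ki-67, stood at 146, 104, 96.3 and 75.1 in control members and at 156, 55.9, 29.2 and 15.3 in heme members. Summed over all members, heme was above control on day 3 and lower on each later day for both. Within the narrower cell limits heme was below control on day 3 already, at 0.0583 times for Top2a and 0.239 times for Mki67. On day 7 these ratios were 0.0731 and 0.0844. The 16 listed cell cycle genes summed to 1873 CPM in control and 305 in heme members of day 7, but to 454 and 248 in the median cell. On day 7, 11 of 12 tested cell cycle genes were called lower and none higher, with a median log2 ratio of -2.53, and Top2a was at 0.0682 times the control level (interval 0.0381 to 0.113). On day 5, 15 of 16 were called lower, with a median of -2.06.

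**Figure D4:**
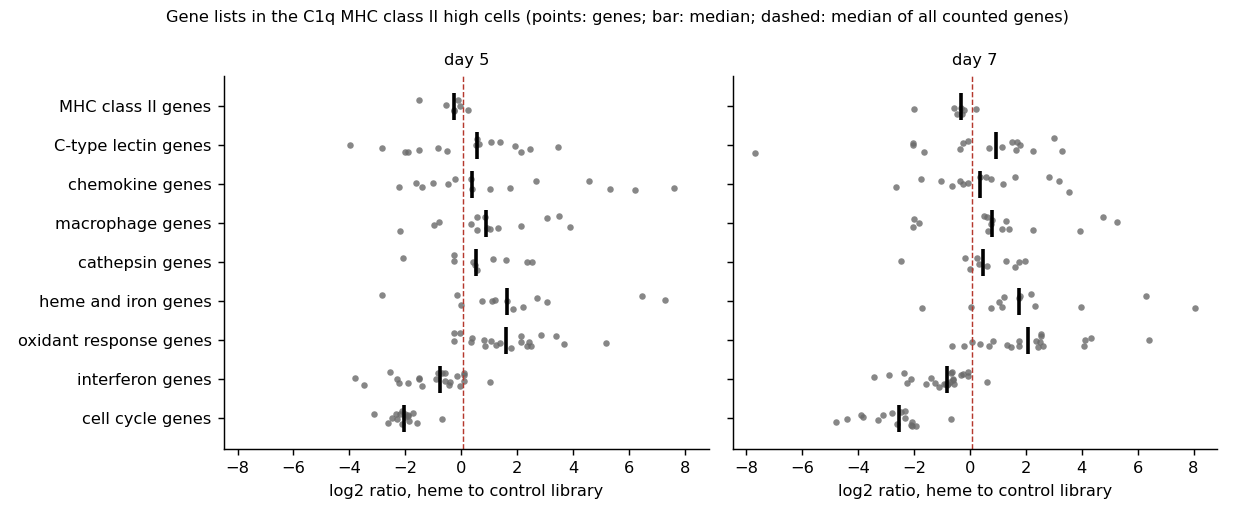
log2 ratio, heme against control members, of the counted genes of 9 lists on days 5 and 7, 1 point per gene, with a bar at the list's median and a dashed line at the median of all counted genes. Oxidant response and heme and iron genes lie above the line (medians 2.07 and 1.76 on day 7), cell cycle genes below it (-2.53) and class II genes near it (-0.32).

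Of 7 tested class II genes 1, H2-DMb2, was called lower on day 7 and none higher, with a median log2 ratio of -0.32, and it was again 1 of 7 on day 5, with a median of -0.26. Within the narrower cell limits, with 8 and 7 heme cells, the medians were 0.06 on day 7 and 0.50 on day 5, and among members of 20000 to 60000 UMIs they were -0.0319 and 0.17. Of 13 tested C-type lectins 7 were called higher and 4 lower on day 7. The lower ones were Asgr2, Mgl2, Clec4b1 (0.246 times) and Clec12a (0.325 times, and 0.526 within the narrower cell limits). The higher ones included the fungal sensors Clec7a (3.17-fold) and Clec4n (3.24-fold) and the activating receptor Clec4d (9.83-fold). Clec7a stood at 395, 465, 358 and 246 in control members and at 383, 1397, 1583 and 779 in heme members, alike on day 3 and higher in heme afterwards.

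Of 11 tested macrophage genes 5 were called higher on day 7, among them Trem2 (2.67-fold), Cd63 (4.77-fold) and Gpnmb (27.2-fold), and 3 lower, among them Fcgr1 (0.245 times) and Cd14 (0.281 times). Gpnmb, a glycoprotein of lipid-laden and lysosome-rich macrophages, stood at 147, 208, 193 and 133 in control members and at 186, 1407, 2868 and 3609 in heme members. Of 10 tested cathepsin genes and their inhibitors 4 were called higher, such as Ctsl (3.92-fold) and Ctsb (3.05-fold), and 1 lower, the cathepsin inhibitor Cst3 (0.183 times, interval 0.178 to 0.189). Cst3 stood at 8398, 12634, 15428 and 19572 in control members and at 8715, 3505, 3614 and 3590.4 in heme members. The day 3 cultures were again alike, and control went up from there while heme was lower on every later day. Within the narrower cell limits Trem2 (1.37-fold), Cd14 (0.516 times), Ctsl (1.73-fold) and Ctsb (1.10-fold) were no longer called on day 7.

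Of 4 tested costimulation genes 3 were called higher and none lower on day 7, namely the PD-1 ligands Cd274 (3.09-fold) and Pdcd1lg2 (2.17-fold) and the class I-like gene H2-M2 (4.63-fold). Pdcd1lg2 was 1.92-fold with TMM factors and 1.45-fold within the narrower cell limits, both short of a call, and H2-M2 was lower instead within those limits. Cd274 stood at 32.5, 49.4, 45.8 and 56.2 in control members and at 57.9, 217, 228 and 174 in heme members. Cd86, a ligand of CD28, stood at 41.8, 55.5, 40.8 and 37.4 in control members and at 57.9, 34.1, 19.7 and 16.1 in heme members, and was under the minimum for a call on day 7. Of 5 tested dendritic cell genes 2 were called lower on day 7, Kmo (0.448 times) and Cd24a (0.471 times), and both were above control within the narrower cell limits. Of 8 tested lipid genes 4 were called higher, of 12 chemokine genes 5 higher and 2 lower, and of 4 interferon genes 1 lower, Ifitm3 (0.236 times). Over all tested genes of day 7, 13.1% were called higher and 7.77% lower. Within the narrower cell limits Ccl9, Cxcl3, Ppbp and Cd36 were lower instead, and 1 cell held 56.9% of the Ppbp UMIs of heme members. The 27 listed interferon genes summed to 1938, 2604, 2734 and 2772 CPM in control members of days 3, 4, 5 and 7 and to 1642, 1044, 993 and 897 in heme members, and Ifitm3 alone stood at 2035 and 479.6 on day 7. The median log2 ratio of the counted interferon genes was 0.37 on day 3, -0.77 on day 5 (22 genes) and -0.81 on day 7 (24 genes), most of them too low for a call.

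Some of the largest ratios of day 7 were those of single cells. Of the 10 highest outside the rule, Rbp4 had 320 of its 377 heme UMIs in 1 cell, Ramp2 118 of 119 and Akr1c18 94 of 103. The globin gene Hbb-bs likewise had 688 of 707 in 1 cell. Marco was at least 989-fold higher against a floor of 3 control counts, with 440 UMIs over 17 cells. Cyp4a12a was 455-fold higher (interval 124 to 3798, 2 control UMIs) with UMIs in 24 of the 29 cells, Spic, a transcription factor of iron-recycling macrophages, 290-fold (interval 77.9 to 2434, 2 control UMIs), the cell cycle inhibitor Cdkn2a 164-fold (interval 90.4 to 333) and the collagenase Mmp13 80.1-fold (interval 39.0 to 191). Mmp13 had UMIs in 27.6% of heme members, Spic in 65.5% and Marco in 58.6%.

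The 10 lowest ratios of day 7 included Asgr2, and their order is not resolved where a gene had few heme UMIs. Tmem176b was at 0.00541 times the control level (interval 0.000137 to 0.0302, from 1 heme UMI), Tmem176a at 0.0176 times (interval 0.00362 to 0.0515, from 3 UMIs), Klk1b11 at 0.0323 times, Klk1b9 at 0.0282 times (interval 0.00581 to 0.0828, from 3 UMIs) and Ifi27l2a at 0.0353 times. Fibronectin, Fn1, was at 0.0174 times (interval 0.00566 to 0.0408), the histone gene Hist1h1b at 0.0169 times and the centromere gene Cenpf at 0.0367 times (interval 0.00754 to 0.108, from 3 UMIs). Mucl1 had 0 UMIs in heme members and 468 in control members. The control members of day 7 enter both this comparison and the one with day 4 above, so that a gene high in that culture counts in both.

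On day 5 the highest ratios outside the rule were Mmp13 (317-fold, interval 56.4 to 12589, 1 control UMI), Ccl24 (197-fold, 345 of 546 UMIs in 1 cell), the neutrophil chemokine Cxcl5 (at least 159-fold), Slc40a1 (157-fold), Hmox1 (87.6-fold), Ppbp (73.8-fold), Cyp1b1 (53.5-fold), Cxcl3 (40.2-fold, and 1.63-fold within the narrower cell limits), Me1 (36.1-fold) and Procr (27.2-fold). The lowest were Klk1b11 (0.0193 times), the TNF family ligand Tnfsf8 (0.0217 times), Slamf9 (0.0574 times), Asgr2, Ms4a6c (0.0648 times), Trp53i11 (0.0848 times), Cenpm (0.0944 times), Ccnb2 (0.116 times) and Ifi27l2a (0.121 times), with Hbb-bs, 549 of whose 644 control UMIs lay in 1 cell. Klk1b11 and Asgr2 were thus among the lowest on both days. Cxcl3 had been 10.5-fold higher in heme members on day 3 already, under the minimum level for a call. That ratio came from 1 control UMI, and 65.6% of the heme UMIs lay in 1 cell.

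The members of one culture were not uniform. Among day 7 control members thinned to 8000 UMIs (439 cells of 1 library), Spearman's rho with C1qb was 0.65 for C1qc and 0.24 for Asgr2, given as a description of cells that share a culture and a capture. By raw Asgr2 count, 38 cells had 0 UMIs, 183 had 1 to 19 and 240 had 20 or more. Across these classes C1qa stood at 75.1, 150.2 and 227 CPM and C1qb at 514, 579 and 664. Mgl2 ran the other way, at 1839, 1709 and 1216, as did the lysozyme gene Lyz2 at 6339, 2945 and 1906, the chemokine Ccl6 at 5844, 4268 and 2831 and Fth1 at 20812, 14358 and 11291. Asgr2-rich members were thus also the C1q-richer ones and had less of Lyz2, Ccl6 and Mgl2. H2-Ab1 had no such order, at 3557, 4265 and 3761, and neither had Ccl17, at 8096, 11344 and 10531.

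The 29 heme members of day 7 also held unlike cells. The 13 with 10 or more Ccl17 UMIs had 3895 H2-Ab1 and 16669 Cd74 CPM, and the 16 with fewer had 2209.7 and 10734. Marco stood at 68.7 in the first and 718 in the second, Mrc1, the mannose receptor, at 55.8 and 159, and Adgre1 at 183 and 319. Summed Marco was thus higher in the cells with little Ccl17, though 1 cell held 131 of the 440 Marco UMIs. Counted by cells, 12 of the 29 had 2 or more Marco UMIs, and 4 of these 12 also had 10 or more Ccl17 UMIs. The median depth differed too, 52926 UMIs in the first and 25727.5 in the second. Hmox1 was high in both, at 4033 and 5278. Of the 29 cells 8 also met the definition of Marco Mrc1 cells (2 or more UMIs of each), and without them the C-type lectin median of day 7 was 0.15 instead of 0.92.

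The day 7 control members were last set beside other cells with class II or macrophage genes: 369 Ccr7 Fscn1 cells and 220 Arg1 Fn1 cells of the same culture and 1078 Marco Mrc1 cells of the day 7 heme culture, none of them members. These are descriptions, since the rule took out Ccr7 and Arg1. Ccl17 stood at 10608 CPM in members, 2589 in Ccr7 Fscn1 cells, 1461 in Arg1 Fn1 cells and 122 in Marco Mrc1 cells. Asgr2 stood at 1325, 118, 274 and 6.16 and Mgl2 at 1452, 109, 620 and 75.5. The 3 genes were higher in members than in these sets, but not particular to them: the 207 H2-Ab1-high cells of the same culture with 0 C1qb UMIs had 10073 Ccl17, 909 Asgr2 and 1329 Mgl2 CPM. H2-Aa was close between members (4282) and Ccr7 Fscn1 cells (3975) and lower in Arg1 Fn1 cells (1351) and Marco Mrc1 cells (429). Fscn1, the actin bundler of migrating dendritic cells, stood at 2.62 in members against 666 in Ccr7 Fscn1 cells, and the chemokine Ccl5 at 13.3 against 4728.

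**Figure D5:**
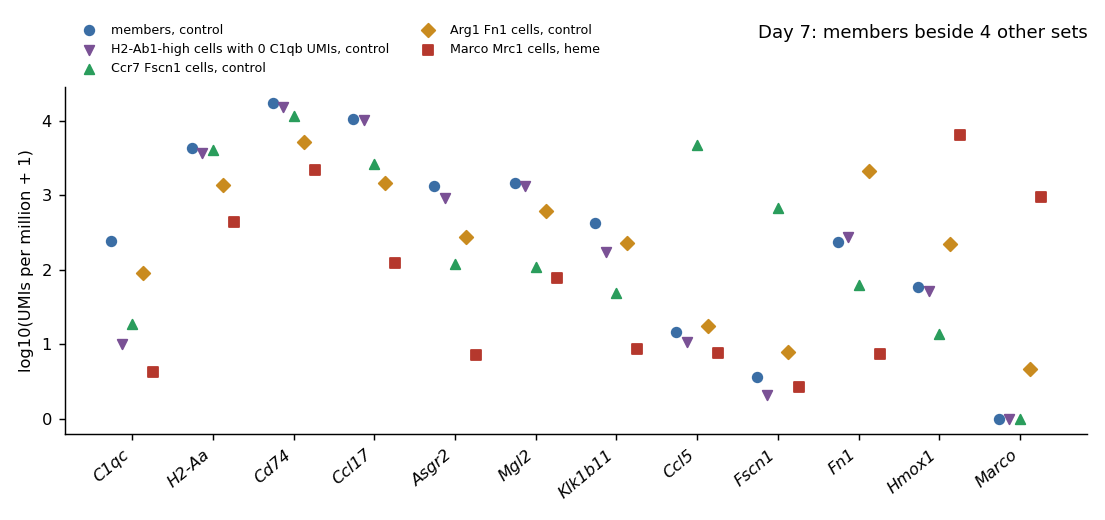
Level on day 7, as log10(CPM + 1), of 12 genes in control members, H2-Ab1-high cells with 0 C1qb UMIs, Ccr7 Fscn1 cells and Arg1 Fn1 cells of the control library and Marco Mrc1 cells of the heme library, summed over cells. Members (Ccl17 10608, Asgr2 1325 and Mgl2 1452 CPM) lie close to the H2-Ab1-high cells with 0 C1qb UMIs (10073, 909 and 1329) in these genes and apart from them in C1qc (242 against 8.97) and Klk1b11 (423 against 172), and stand low for Ccl5, Fscn1 and Marco (13.3, 2.62 and 0).

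Against all other kept cells of their culture, day 7 control members were highest, after C1qa (6.73-fold) and C1qc (5.17-fold), in Trp53i11 (3.91-fold), Klk1b9 (3.72-fold), Asgr2 (3.60-fold), the macrophage protein Aif1 (3.45-fold), the growth factor receptor Fgfr1 (3.41-fold) and Klk1b11 (2.95-fold). Ccl17 was 2.85-fold higher, Ciita 2.81-fold and the Fc receptor-like gene Fcrls 2.76-fold. Heme members of day 7 had 3669 H2-Aa CPM, near control members, but the rule had required H2-Ab1, its partner chain, in both. Their Hmox1 stood at 4579 beside 6322 in Marco Mrc1 cells, and their Asgr2 at 6.43 beside 6.16. Of the heme members 8 met the Marco Mrc1 definition themselves, and Hmox1 was also high in S100a8-high cells of that culture. These 3 genes do not place the heme members among the sets. With 1 library and 1 culture per condition and 29 heme members on day 7, differences between cultures other than heme and heme itself cannot be told apart.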

How the data were processed

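Droplet 3′ RNA counts of 2 libraries were analysed, 1 per group. Per the labels and the file headers, the authors made them with Cell Ranger (4.0.0 in the processing notes, 5.0.0 in the matrix header) on GRCm38.p6; the notes also name R 4.4, Seurat 3.2.3 and Scanpy 1.6.0. The deposited values are raw UMI counts per gene and barcode (26124 genes). The authors' hashtag calls were used as deposited, and barcodes called as several hashtags or none were left out. Pooled libraries sharing 1 capture share their free RNA.

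UMI counts were summed over members by library and culture day and scaled to CPM. Ratios have exact intervals for 2 Poisson counts and shares Clopper-Pearson intervals, at 95%. Tested genes had 20 or more UMIs in both groups together and 50 or more CPM in the higher, and called genes a ratio of 2 or more or 0.5 or less. A count of 0 was set to 3 counts. Cells were thinned to 8000 UMIs with seed 1. Python 3.11.15 with numpy 2.4.6, scipy 1.17.1 and pandas 2.3.3 was used, and R 4.3.3 with edgeR 4.0.16 and DESeq2 1.42.0 for scaling factors only. The ratios and intervals were tested on simulated Poisson counts, the model that the intervals assume, so spread between cells was not covered. Gene positions come from GENCODE M21 (26013 of 26124 identifiers matched). Named genes were the genes of fixed lists plus the 10 highest and 10 lowest ratios of each comparison between members (15 highest against other cells, 8 against like cells), without the 4 rule genes, mitochondrial and ribosomal protein genes; 1 gene of these is counted in totals but not reported here. The members and lists were chosen with earlier results of these data known. Alternatives were other scalings, UMI minimums, rule thresholds, the study's cell limits, depth and single cell groups.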

Additional observations from a re-analysis of the deposited data

Results flagged for a closer look

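The share of C1q MHC class II high cells, heme minus control, was 0.403 percentage points on day 3 and -14.3 points on day 7, where the libraries differed in opposite directions before and after heme was added. The difference between the days was not tested, since each is 1 culture per group, and the day 3 interval included 0. Barcodes with several hashtags, which entered no comparison, also met the expression rule, 8.60% of them for control and 2.82% for heme. Of the control barcodes that met it 77 of 107 carried a day 7 hashtag among their tags, and of the heme barcodes 18 of 55. Their median depth was 31143 UMIs for control and 60258 for heme.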

How the results depend on the processing

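The alternatives that left out barcodes found in both libraries, S100a8-high cells or Marco Mrc1 cells, or kept members of 20000 to 60000 UMIs, were chosen after seeing the data. Of 36 share differences 24 stayed within the spread, of 70 gene counts 50, and of 126 list medians 107. Of 5937 ratios of named genes 4627 stayed within it, 1295 moved beyond it and 15 changed sign after a call. The share difference (heme minus control) kept its direction in all alternatives on days 4, 5 and 7. On day 4 it was -2.82 points with 1 C1qb UMI, -0.915 with 4, -0.702 after thinning and -4.62 without S100a8-high cells. On day 5 it was -2.91 with 4 C1qb UMIs and -7.37 without S100a8-high cells. On day 7 it was -16.1 with 1 C1qb UMI, -11.9 with 4, -16.5 with 10 H2-Ab1 UMIs, -10.0 with 40, -17.8 without limits on Ccr7 and Arg1 and -12.2 after thinning.

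With 5 UMIs and no minimum of CPM, genes called higher and lower were 1070 and 385 for day 3, 1605 and 1199 for day 5, 2170 and 1191 for day 7, with 798 and 785 for control day 7 against day 4, because more genes were tested. Within narrower cell limits of at most 5000 genes and under 30% ribosomal UMIs (heme members 18, 7 and 8 on days 3, 5 and 7) the counts were 257 and 180 for day 3 and 553 and 401 for day 5, while 594 were higher for day 7. On day 3 TMM factors gave 38 and 18, DESeq2 size factors 38 and 19, members of 20000 to 60000 UMIs 137 and 24, and the mean over cells 16 lower. For control day 7 against day 4 the share of called genes that were higher went from 60.6% to 70.8% with TMM factors, and on day 3 from 87.7% to 67.9%.

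The class II median log2 ratio of day 5 was -0.36 with TMM factors, -0.35 with DESeq2 size factors, 0.50 within the narrower limits, 0.17 at 20000 to 60000 UMIs, -0.15 without shared barcodes and -0.17 as a mean over cells. On day 7 it was -0.50 with TMM factors, -0.485 with DESeq2 size factors, 0.0557 within the narrower limits and -0.0319 at 20000 to 60000 UMIs. The C-type lectin median of day 5 was -1.10 within the narrower limits, 0.14 at 20000 to 60000 UMIs and 0.23 as a mean over cells, and on day 7 it was 0.47 with 40 H2-Ab1 UMIs and 0.15 without Marco Mrc1 cells. The macrophage median was -0.28 on day 5 within the narrower limits and 1.09 on day 7 as a mean over cells, the cell cycle median -2.73 on day 5 within the narrower limits, and the oxidant response median 2.29 on day 7 as a mean over cells.

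Within the narrower limits these log2 ratios changed sign: Hist1h3c -3.33 and Knl1 -1.33 on day 3, Ccl6 -0.18 on day 5, and on day 7 Kmo 0.43, Cd24a 0.29, Ccl9 -1.26, Cxcl3 -0.69, Ppbp -0.23, H2-M2 -1.57, Ctsd -0.0304 and Cd36 -2.55. Without Marco Mrc1 cells, Mrc1 was -1.02 and Cxcl2 -0.31 on day 7, Cxcl2 was -0.23 with 40 H2-Ab1 UMIs, and Hbb-bs was -0.50 at 20000 to 60000 UMIs. Beyond the numbers of cells and genes left, the cause was not tested. No paired analysis was possible because each group is 1 library. Heme members of days 4 and 7 number 24 and 29, which limits the precision of their shares and levels.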
